A study of Mus musculus with 4 samples.

Results

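The Hippo-YAP genes described here are 10 core and response genes of the pathway: Ccn1, Ccn2, Ankrd1, Amotl2, Yap1, Wwtr1, Tead1, Tead4, Lats2 and Ajuba. Every probe set whose only gene symbol was that of a member was taken, which gave 24 probe sets for 10 genes among 45037 probe sets other than array controls. All 24 were tested, with no filter on low values. A further probe set annotated to both Lats2 and Xpo4 was not used here. The study grew mammary basal epithelial cells, sorted from virgin CD1 female mice 8 to 12 weeks old as lineage-negative, CD24-positive and CD29-high, as colonies in growth factor reduced Matrigel, a gel of basement membrane proteins. The Wnt3A group received purified Wnt3A protein at 200 ng/ml and the control group its vehicle, CHAPS in PBS, and both groups received EGF at 50 ng/ml. RNA came from colonies of passage 2 after 6 to 7 days and was hybridised to 1 Affymetrix mouse array per sample, giving the arrays Wnt3A 1, Wnt3A 2, control 1 and control 2. Whether the arrays of a group stand for different animals, pools of animals or cultures is not given by the labels, so a p-value here reflects only how far the 4 samples scatter, and that scatter may be technical.

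The Hippo pathway is a kinase cascade in which the kinases Stk3 and Stk4 activate Lats1 and Lats2, and these phosphorylate the coactivators YAP (Yap1) and TAZ (Wwtr1), which keeps them out of the nucleus. When the cascade is off, YAP and TAZ bind TEAD transcription factors on DNA and switch on genes such as Ccn1, Ccn2 and Ankrd1. The pathway responds to cell shape, attachment to matrix and actin tension, and in the mammary gland TAZ is known for promoting basal cell features.

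Each deposited value is a log2 difference from the median of its probe set over the 4 arrays, so it carries no absolute level, and levels cannot be compared between genes. Because of this centring the middle values of a probe set lie at equal distances on either side of 0. Control 1 held 46 probe sets at or below -2, against 24 in Wnt3A 1, 13 in Wnt3A 2 and 7 in control 2. The lineage could be checked only coarsely, from the precision with which the numbers were stored: 19 of 23 probe sets of the basal markers fell in the brightest band (log2 8 to 16). Probe sets of luminal (11 of 14), fibroblast (6 of 16), endothelial (3 of 6) and immune (3 of 6) markers fell there too, as did 53.0% of all probe sets. This band thus does not show that a cell type was present, and no marker could be called absent. In such bulk RNA, fewer cells of a type and less RNA per cell cannot be told apart.

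No member passed the test of Wnt3A against control. Limma's adjusted p was at least 0.79 for all 24 probe sets, and 0 of 45037 probe sets passed 0.05 over the whole table (percent called: 0). At an unadjusted p under 0.05 there were 2 member probe sets higher with Wnt3A, 1 each of Ankrd1 and Tead4, and 0 lower, where 2.98% of all probe sets were called higher and 3.24% lower (6.22% either way). Both Wnt3A arrays lay above both controls for 9 of the 24 probe sets (37.5%) and below both for 1, against 17.4% and 16.3% of all probe sets. These 9 were all the probe sets of 6 genes, Ccn2, Ankrd1, Amotl2, Ajuba, Tead4 and Yap1, and several probe sets measure the same gene, so they are not independent. With the probe sets of a gene averaged, the same 6 of 10 genes were separated higher and 0 lower, against 17% of the 18193 genes higher and 17.5% lower. At an unadjusted p under 0.05 by limma, 1 of the 10 gene means was called, that of Ankrd1, against 7.37% of all genes. The median difference over the 24 probe sets was 0.01 log2 units, as it was over all probe sets (0.01). Over the 10 gene means, in which Lats2, Ccn1 and Wwtr1 with their 13 probe sets weigh no more than the others, the median was 0.28.

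**Figure D1:**
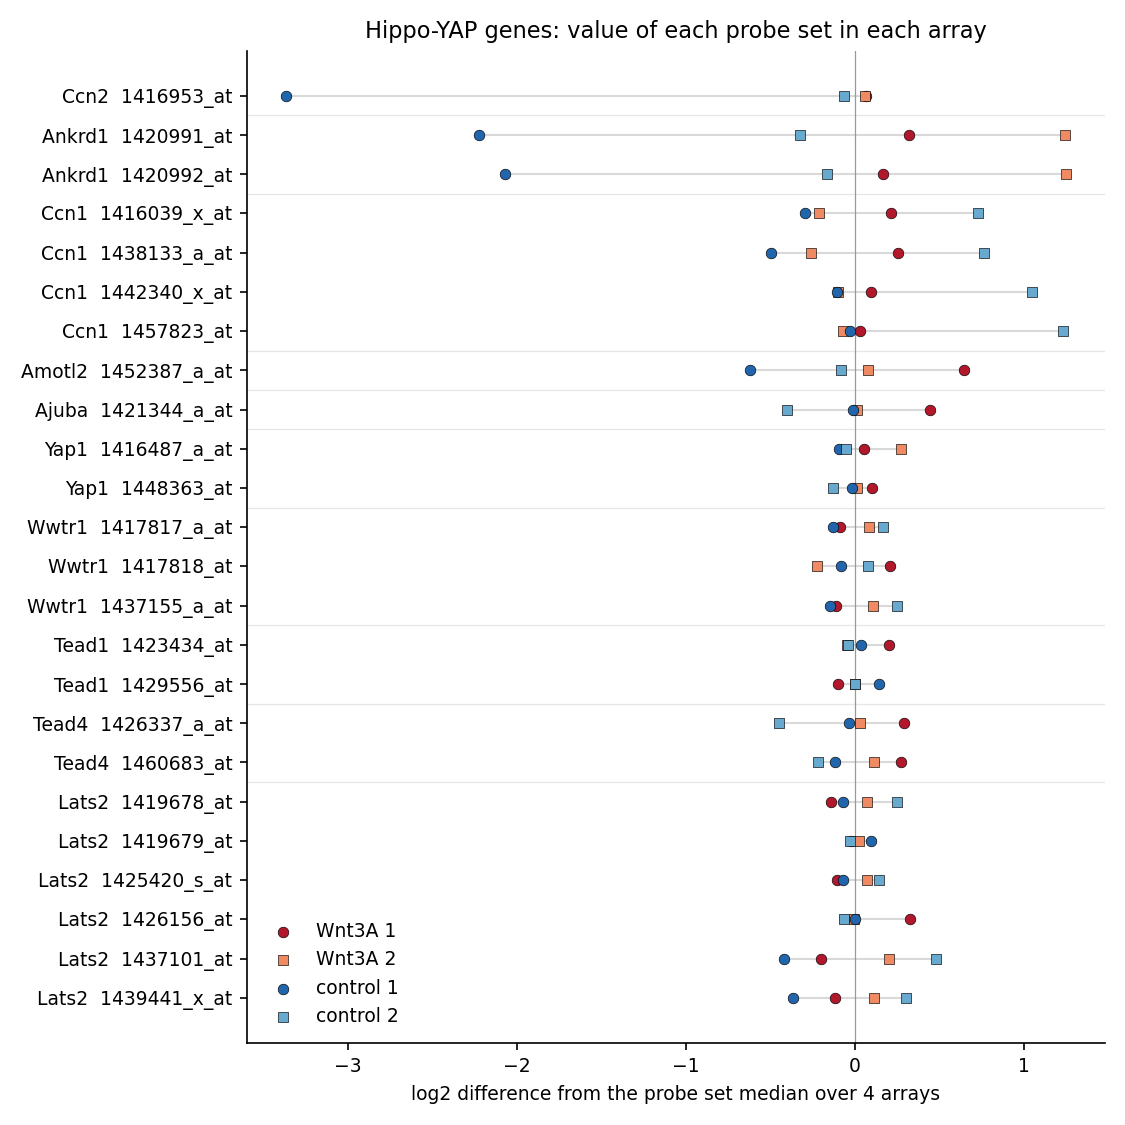
Value of each of the 24 probe sets (rows, by gene) in each array, as the log2 difference from the probe set's median over the 4 arrays; red and orange mark the Wnt3A arrays, dark and light blue the controls. Ccn2 and Ankrd1 spread most, with control 1 at -3.37 for Ccn2, and the 4 Ccn1 probe sets have control 2 as their highest value.

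Ccn2 encodes connective tissue growth factor, a secreted matrix-associated protein and a standard readout of YAP and TAZ activity (GRCm38.p6, chromosome 10, 24595442 to 24598683). Its single probe set, 1416953_at, had values of 0.07 and 0.06 in Wnt3A 1 and Wnt3A 2, against -3.37 and -0.06 in control 1 and control 2. Control 1 was thus low by itself, and the other 3 arrays lay within a narrow range, with a gap of 0.12 between the lower Wnt3A array and the higher control. The mean difference, Wnt3A minus control, was 1.78 ± 1.13 log2 units (SE, n = 2 arrays a group), a 3.43-fold ratio, with an adjusted p of 0.92 by limma. Control 2 exceeded control 1 by 3.31 log2 units, more than the treatment difference, though single arrays scatter more than means of 2 arrays. Without control 1 the Ccn2 difference was 0.13, and without control 2 it was 3.43.

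Ankrd1 encodes a nuclear ankyrin repeat protein of muscle and stretched cells and is another direct YAP and TAZ target (chromosome 19, 36111965 to 36119844). Its first probe set, 1420991_at, had values of 0.32 and 1.25 in Wnt3A 1 and Wnt3A 2, against -2.22 and -0.32 in control 1 and control 2. Its second, 1420992_at, had values of 0.17 and 1.25 in the Wnt3A arrays, against -2.07 and -0.17 in the controls. Control 1 was again the lowest array, but here Wnt3A 2 also stood above Wnt3A 1, and the groups were apart by 0.64 and 0.33 log2 units. The differences were 2.06 ± 0.73 (adjusted p = 0.79, unadjusted p = 0.044) and 1.83 ± 0.76 log2 units (SE, n = 2 arrays a group, limma, adjusted p = 0.82). Without control 1 they were 1.11 and 0.88, and without control 2 they were 3.01 and 2.78. Ankrd1 thus kept a difference of at least 0.88 log2 units whichever array was left out. Its sign could not change, because both Wnt3A arrays lay above both controls. The controls differed from each other by 1.90 log2 units in both probe sets.

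Ccn1, also known as Cyr61, encodes a secreted protein of the same family as Ccn2 and is used beside it as a YAP and TAZ readout (chromosome 3, 145646971 to 145649985). It was measured by 4 probe sets, of which 1442340_x_at and 1457823_at are annotated to the same sequence, and the suffix x marks probes that may match other transcripts. The probe set 1438133_a_at had values of 0.26 and -0.26 in Wnt3A 1 and Wnt3A 2, against -0.49 and 0.77 in control 1 and control 2. The probe set 1457823_at had values of 0.03 and -0.07 in the Wnt3A arrays, against -0.03 and 1.23 in the controls. Control 2 was the highest array in all 4 probe sets and the groups overlapped in all 4. The differences ran from -0.62 to -0.14 log2 units, with adjusted p of at least 0.94 by limma. The controls differed by 1.02 to 1.26 log2 units, with control 1 the lower one as for Ccn2. Without control 2 the 4 differences were positive (0.01 to 0.49), and without control 1 they ran from -1.25 to -0.73. Without Wnt3A 2, 1 of them, that of 1438133_a_at, was also positive (0.12).

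Across the members, 7 probe sets, those of Ccn1, Ccn2 and Ankrd1, were at least 1 log2 unit higher in control 2 than in control 1, and 0 were as much lower, where 2.18% of all probe sets were higher by that much and 0.995% lower. For comparison, 3 member probe sets differed by at least 1 log2 unit upward between the treatments (0.881% of all probe sets) and 0 downward (0.711%). Between the Wnt3A arrays, 1 member probe set, of Ankrd1, was at least 1 log2 unit higher in Wnt3A 2 (2.94% of all) and 0 as much lower (0.744%). The control arrays differed by more than the treatment groups did in 16 of 24 member probe sets (66.7%), and in 60.6% of all probe sets. A difference between single arrays scatters more than a difference between means of 2 arrays. A larger control difference, here or for a single gene, is therefore no sign by itself that the controls varied more than the treatment. The median absolute difference of the members was 0.16 log2 units between the treatments and 0.39 between the controls, against 0.13 and 0.18 over all probe sets.

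**Figure D2:**
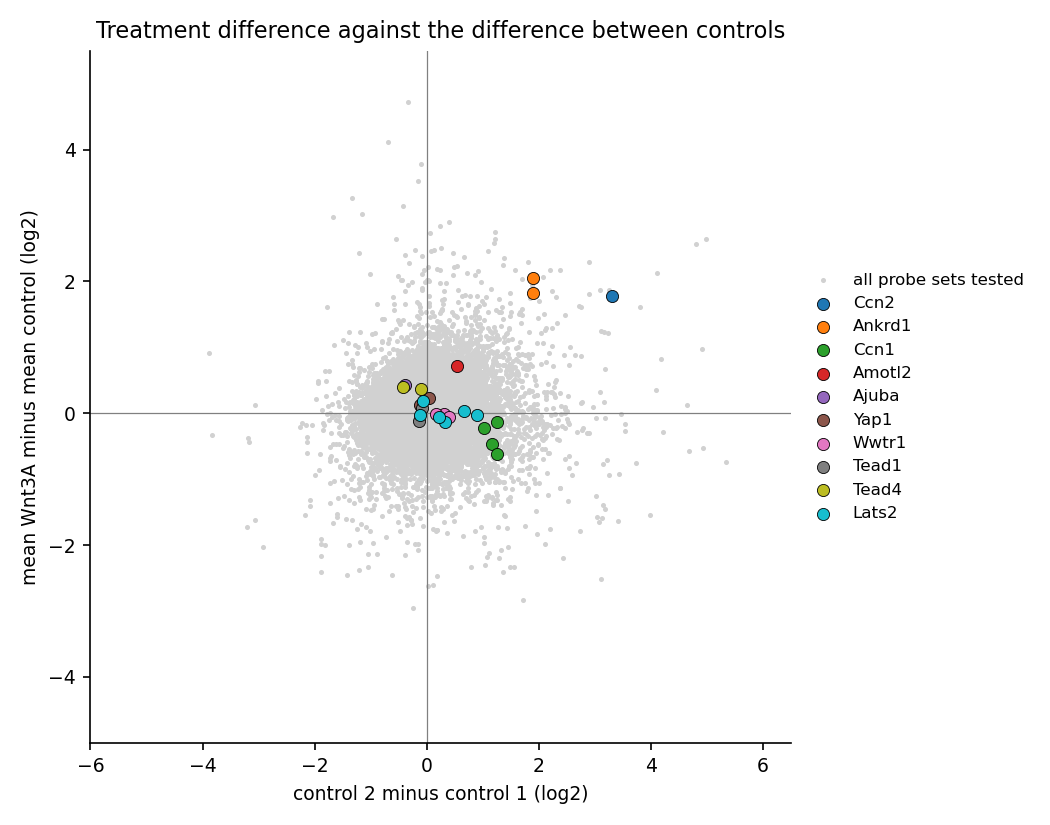
Each point is a probe set, with control 2 minus control 1 on the horizontal axis and mean Wnt3A minus mean control on the vertical axis, both in log2 units; grey points are all probe sets tested and coloured points the members. Ccn2 (3.31 and 1.78) and Ankrd1 (1.90 and 1.83 to 2.06) lie far out on both axes, and Ccn1 lies to the right with differences of -0.62 to -0.14.

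Amotl2 encodes an angiomotin-like protein that binds YAP and TAZ at junctions and holds them back, and it is itself induced by them (chromosome 9, 102717091 to 102733418). Its probe set, 1452387_a_at, had values of 0.64 and 0.08 in Wnt3A 1 and Wnt3A 2, against -0.62 and -0.08 in control 1 and control 2. The groups did not overlap, by a gap of 0.16 log2 units, and the outer values came from the arrays numbered 1. The difference was 0.71 ± 0.29 log2 units (SE, n = 2 arrays a group, limma adjusted p = 0.82). It was 0.43 without Wnt3A 1 and 0.44 without control 1, against 1.00 without Wnt3A 2 and 0.98 without control 2.

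Ajuba encodes a LIM-domain scaffold protein that binds Lats kinases at tension-bearing junctions and restrains them (chromosome 14, 54567469 to 54577661). Its probe set, 1421344_a_at, had values of 0.44 and 0.01 in Wnt3A 1 and Wnt3A 2, against -0.01 and -0.40 in control 1 and control 2. Unlike for Ccn2 and Ankrd1, the lowest array was control 2, and the groups were apart by only 0.03 log2 units. The difference was 0.44 ± 0.23 log2 units (SE, n = 2 arrays a group, limma adjusted p = 0.88), and it lay between 0.22 and 0.65 with each array left out.

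RefSeq promoter sequences (GRCm38.p6) were matched by symbol for 7 of the 10 members, all but Ccn2, Tead1 and Tead4. The 250 bases before the annotated start were searched on both strands for GGAATG, the core that TEAD factors bind. The 4 promoters below belong to the target and scaffold genes described above, and are shown so that the position of the core can be set beside the values of each gene. They are written 5′ to 3′ on the strand of the gene, with the core in capitals (CATTCC where it lies on the opposite strand). The windows are chr19:36119845-36120094 for Ankrd1 and chr3:145649986-145650235 for Ccn1, both on the minus strand, chr9:102717554-102717803 for Amotl2 on the plus strand, before a start that lies inside the span of the gene, and chr14:54577662-54577911 for Ajuba on the minus strand.
Ankrd1: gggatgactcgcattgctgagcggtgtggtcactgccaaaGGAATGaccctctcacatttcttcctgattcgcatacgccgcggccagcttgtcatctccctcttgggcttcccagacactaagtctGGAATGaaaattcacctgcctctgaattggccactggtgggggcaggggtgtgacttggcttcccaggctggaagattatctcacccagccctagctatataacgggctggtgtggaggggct
Ccn1: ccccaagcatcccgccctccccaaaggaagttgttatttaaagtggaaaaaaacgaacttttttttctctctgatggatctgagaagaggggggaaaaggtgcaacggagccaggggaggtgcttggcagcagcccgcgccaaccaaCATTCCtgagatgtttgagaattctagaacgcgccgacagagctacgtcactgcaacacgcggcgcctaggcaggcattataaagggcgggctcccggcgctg
Amotl2: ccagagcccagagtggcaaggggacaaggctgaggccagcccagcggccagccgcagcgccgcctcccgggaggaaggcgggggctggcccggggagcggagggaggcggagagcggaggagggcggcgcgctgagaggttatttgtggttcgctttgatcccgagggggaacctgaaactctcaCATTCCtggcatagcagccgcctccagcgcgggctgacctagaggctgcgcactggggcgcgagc
Ajuba: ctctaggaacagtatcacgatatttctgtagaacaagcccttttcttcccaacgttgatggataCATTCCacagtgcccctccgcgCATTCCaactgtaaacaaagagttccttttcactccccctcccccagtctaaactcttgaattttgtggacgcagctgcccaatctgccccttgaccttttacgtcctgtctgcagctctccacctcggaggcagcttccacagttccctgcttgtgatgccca
Ankrd1 held the core at bases 210 to 205 and 123 to 118 before the start, and Ajuba at bases 186 to 181 and 164 to 159. Ccn1 held 1 copy at bases 103 to 98 and Amotl2 1 copy at bases 65 to 60. Of the others, Yap1 held 1 copy at bases 141 to 136, and Wwtr1 held 1 copy that both of its overlapping windows contain, while neither window of Lats2 held it. In all, 7 of the 9 member windows, from 6 of 7 genes, had at least 1 copy, against 12.6% of 32851 promoter windows of the same length, and 2 had at least 2 copies, against 1.02%. TGACTCA, bound by AP-1, and the CArG box, bound by serum response factor, were found in 0 of the 9 member windows, against 4.5% and 1.5% of all windows. Several members are listed because they are known targets of YAP and TAZ, so their share with the TEAD core is no test against all promoters. A match of these letters is a description and shows no binding.

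The coactivators themselves varied little. Yap1 (chromosome 9, 7931999 to 8004638) had values of 0.05 and 0.27 in the Wnt3A arrays, against -0.09 and -0.05 in the controls, in 1416487_a_at. In 1448363_at it had values of 0.10 and 0.01 in the Wnt3A arrays, against -0.01 and -0.13 in the controls. The groups were separated in both probe sets, by gaps of 0.11 and 0.03 log2 units, and the differences were 0.24 ± 0.14 and 0.13 ± 0.13 log2 units (SE, n = 2 arrays a group, limma adjusted p = 0.91 and 0.97). With each array left out they ran from 0.13, without Wnt3A 2, to 0.35, without Wnt3A 1, in the first, and from 0.07, without control 2, to 0.19, without control 1, in the second. Wwtr1, which encodes TAZ (chromosome 3, 57455644 to 57575910), differed by -0.05 to -0.01 log2 units over its 3 probe sets, with SE of 0.16 to 0.19 and overlapping groups in all 3. In 1437155_a_at, the Wwtr1 probe set with the largest absolute difference, the values were -0.11 and 0.11 in the Wnt3A arrays, against -0.15 and 0.25 in the controls. Both Wnt3A arrays thus lay between the controls. YAP and TAZ are controlled mainly by phosphorylation and location, which the arrays do not measure.

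Tead1 and Tead4 encode TEAD factors, the DNA-binding partners of the complex with YAP and TAZ. Tead4 (chromosome 6, 128227143 to 128300813) had values of 0.27 and 0.12 in Wnt3A 1 and Wnt3A 2, against -0.12 and -0.22 in control 1 and control 2, in 1460683_at. In 1426337_a_at it had values of 0.29 and 0.03 in the Wnt3A arrays, against -0.03 and -0.45 in the controls. The groups did not overlap in either, and the differences were 0.36 ± 0.13 (unadjusted p = 0.048) and 0.41 ± 0.20 log2 units (SE, n = 2 arrays a group, limma adjusted p = 0.80 and 0.87). With each array left out they stayed between 0.28 and 0.44 in the first and between 0.20 and 0.61 in the second. The controls differed by -0.10 log2 units in 1460683_at, less than its treatment difference, and by -0.42 in 1426337_a_at, slightly more than its treatment difference. Tead1 (chromosome 7, 112679356 to 112906784) differed by 0.08 ± 0.15 and -0.12 ± 0.13 log2 units in its probe sets, and the second, 1429556_at, was the member probe set with both Wnt3A arrays below both controls, by less than 0.01 log2 units. Whether Tead4 and Tead1 differ in their response was not tested.

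Lats2 encodes the kinase that phosphorylates YAP and TAZ and is also among their feedback targets (chromosome 14, 57689662 to 57746212). It had 6 probe sets, the most of any member, and the groups overlapped in all 6. The differences ran from -0.13 to 0.19 log2 units, with SE of 0.12 to 0.36 and limma adjusted p of at least 0.96. Its widest probe set, 1437101_at, had values of -0.20 and 0.20 in the Wnt3A arrays, against -0.42 and 0.48 in the controls. There and in 1439441_x_at, with -0.12 and 0.12 in the Wnt3A arrays against -0.37 and 0.30 in the controls, both Wnt3A arrays lay between the controls, and the controls differed by 0.90 and 0.67 log2 units. The other 4 Lats2 probe sets had control differences between -0.12 and 0.32.

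**Figure D3:**
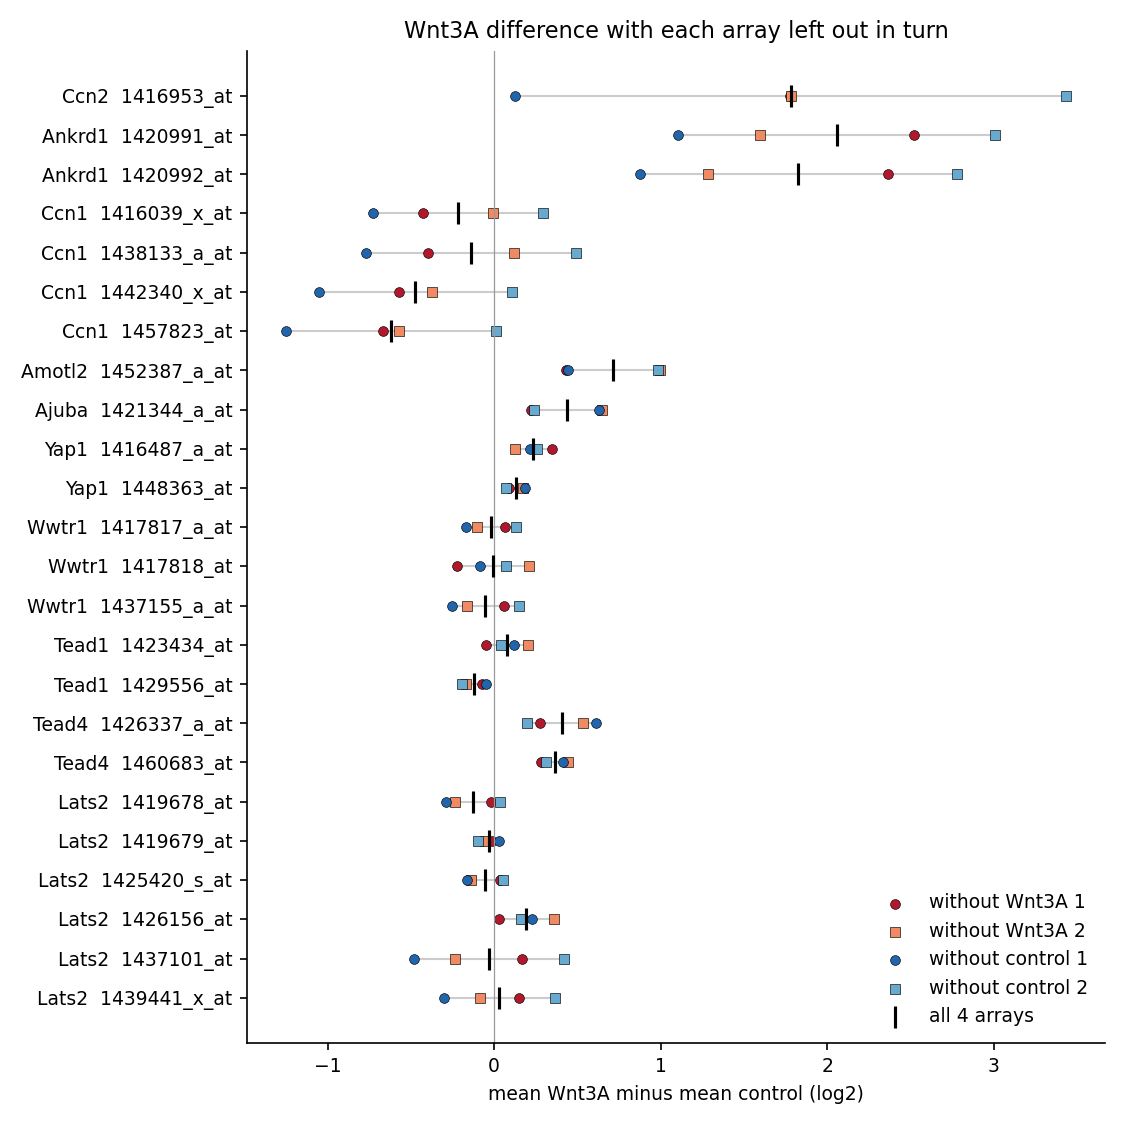
Mean Wnt3A minus mean control in log2 units for each member probe set (rows), with all 4 arrays (black bar) and with each array left out in turn (coloured points). Ccn2 runs from 0.13 without control 1 to 3.43 without control 2, and Ccn1 crosses 0. Ccn2, Ankrd1, Amotl2, Ajuba, Yap1 and Tead4 stay positive throughout, as they must where both Wnt3A arrays lie above both controls.

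Control 1 was the lowest of the 4 arrays in 12 of the 24 member probe sets (50.0%), against 22.1% of all probe sets. The genes outside the members whose values lay closest to those of Ccn2, by Euclidean distance over the 4 arrays, were Fn1 (distance 0.44), Tagln (0.76), Plau (0.80), Adam12 (0.82) and Col8a1 (0.82). They encode fibronectin, the smooth muscle actin-binding protein transgelin, urokinase, a membrane metalloprotease and a collagen chain. In single probe sets, Fn1 had values of 0.07 and 0.45 in the Wnt3A arrays, against -3.16 and -0.07 in the controls. Tagln had -0.08 and 0.37 in the Wnt3A arrays, against -4.03 and 0.08 in the controls. All 5 were lowest in control 1, and without it their differences were 0.07 to 0.85 log2 units, compared with 1.63 to 2.29 with all arrays. They were chosen for values close to those of Ccn2, so this pattern follows from the choice and is no separate result.

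**Figure D4:**
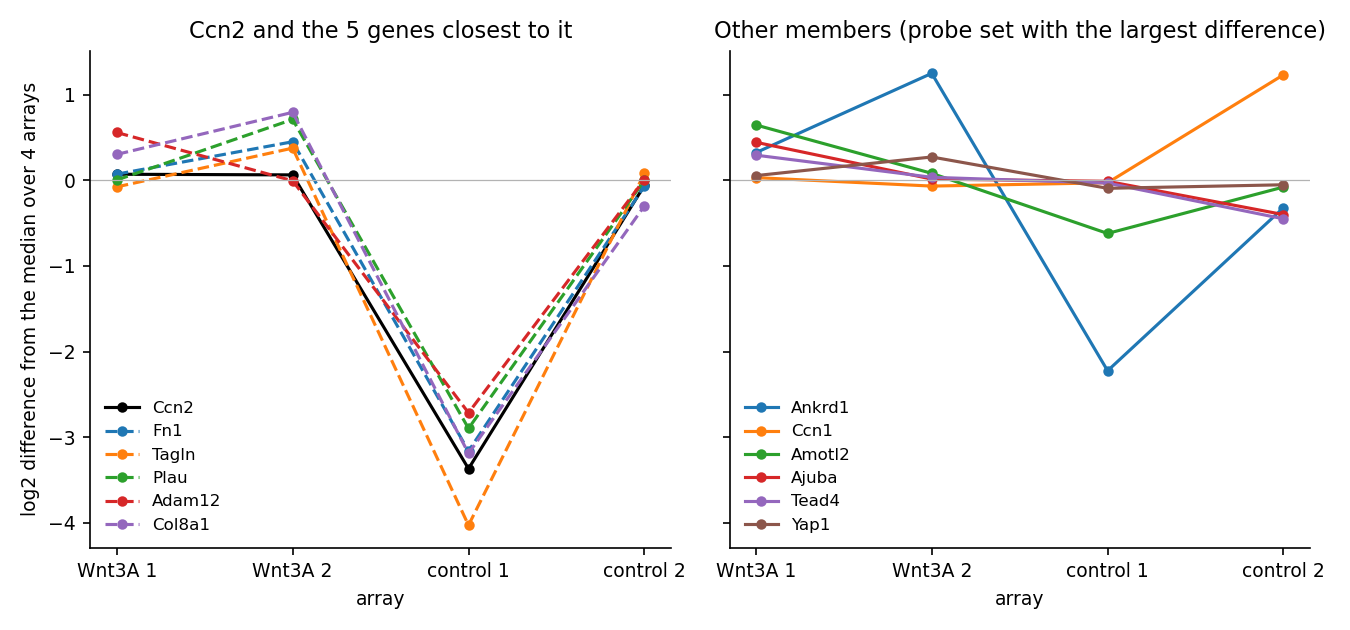
Values in the 4 arrays as log2 differences from the probe set's median, with a line joining the values of 1 probe set; left, Ccn2 (solid) and the 5 genes closest to it (dashed), and right, 6 other members by their probe set with the largest difference. Control 1 is the low point of Ccn2 (-3.37), of its neighbours, which were chosen for that likeness, and of Ankrd1 (-2.22). Ajuba and Tead4 are lowest in control 2.

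Genes of serum response factor and actin, which are also driven by actin tension, were set beside the same arrays. Of their 33 probe sets, control 1 was the lowest array in 19 (57.6%, against 22.1% of all probe sets), and 10 were at least 1 log2 unit higher in control 2 than in control 1 (2.18% of all). The list median was -0.02 and 0.18 in Wnt3A 1 and Wnt3A 2, against -0.36 and 0.07 in control 1 and control 2. Both Wnt3A arrays lay above both controls in 7 probe sets (21.2%) and below both in 3, against 17.4% and 16.3% of all probe sets, with a median difference of 0.15 log2 units and 0 passing limma's adjusted threshold. At an unadjusted p under 0.05, 4 were higher and 0 lower (2.98% and 3.24% of all). The smooth muscle actin gene Actg2 had values of -0.13 and 0.88 in the Wnt3A arrays, against -3.12 and 0.13 in the controls. The calponin gene Cnn1 had -0.48 and 0.65 in the Wnt3A arrays, against -2.75 and 0.48 in the controls. Without control 1 the Actg2 difference was 0.25, not 1.87, and that of Cnn1 was -0.39, not 1.22. Zyx, which encodes the focal adhesion protein zyxin, had values of 0.84 and 0.37 in the Wnt3A arrays, against -0.79 and -0.37 in the controls. Its difference was 1.18 ± 0.25 log2 units (SE, n = 2 arrays a group, unadjusted p = 0.0073, limma adjusted p = 0.72) and 0.97 without control 1. These values are those of the higher of its 2 probe sets, and the other gave 0.46.

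Markers of mammary cell types were set beside the same arrays. Control 1 was the lowest array in 13 of 23 probe sets of basal markers (56.5%) and 5 of 14 of luminal markers (35.7%), against 22.1% of all probe sets. It was the lowest in 3 of 16 of fibroblast (18.8%), 1 of 6 of endothelial (16.7%) and 1 of 6 of immune markers (16.7%), near that share. Among the basal markers, the smooth muscle myosin gene Myh11 had values of -0.50 and 0.92 in the Wnt3A arrays, against -3.30 and 0.50 in the controls, in 1 of its probe sets, while the other showed no low control 1 (-0.03) and a difference of -0.02 log2 units. The oxytocin receptor gene Oxtr had -1.26 and -1.32 in the Wnt3A arrays, against 1.26 and 1.37 in the controls, in the wider of its probe sets (limma adjusted p = 0.51, the smallest of the whole table). Its other probe set had 0.10 and -0.43 in the Wnt3A arrays, against 0.09 and -0.09 in the controls, a difference of only -0.17. Among the fibroblast markers, the receptor gene Pdgfra was highest in control 1 in 2 of its 3 probe sets, and the wider of them had -0.42 and -1.01 in the Wnt3A arrays, against 1.67 and 0.42 in the controls. The remaining Pdgfra probe set differed by only 0.02, and 12 of the 16 fibroblast probe sets had positive differences. The collagen gene Col1a2 ran the other way, lowest in control 1 in 2 of its 3 probe sets. The wider of these had -0.35 and 0.35 in the Wnt3A arrays, against -1.39 and 0.91 in the controls. Its remaining probe set was lowest in control 2 (-0.17). The single probe set of Thy1 was also lowest in control 1 (-0.40). Of the luminal markers, Foxa1 had -1.85 and -0.68 in the Wnt3A arrays, against 0.68 and 1.47 in the controls, without overlap. Krt19 had -0.02 and -1.61 in the Wnt3A arrays, against 0.02 and 1.77 in the controls. The luminal keratin genes Krt8 (0.17 to 0.30 over its probe sets) and Krt18 (0.17), named after their values were seen, had positive differences and were also lowest in control 1. The basal list had 8 probe sets separated higher and 1 lower (median difference 0.20), the luminal list 1 higher and 3 lower (-0.12), the fibroblast list 3 higher and 2 lower (0.06), the endothelial list 2 higher and 0 lower (-0.06), and the immune list 1 higher and 0 lower (0.02), where 17.4% of all probe sets were separated higher and 16.3% lower. Most of the 8 basal probe sets separated higher were those of Itgb1. The basal list had array medians of 0.09 and 0.08 in Wnt3A 1 and Wnt3A 2, against -0.09 and -0.01 in control 1 and control 2, and the fibroblast list 0.03 and 0.01, against -0.01 and -0.02. What cell composition contributes to the Ccn2, Ankrd1 and Ccn1 values was not tested.

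Other genes of the pathway differed little as a list. Of 25 further Hippo components, 24 were measured, by 66 probe sets, and Stk3 was not analysed here. Both Wnt3A arrays lay above both controls in 15 probe sets (22.7%) and below both in 11, near the shares of all probe sets (17.4% and 16.3%), with a median difference of 0.05 log2 units and 0 passing the adjusted threshold. At an unadjusted p under 0.05, 2 were higher and 2 lower, against 2.98% and 3.24% of all. Vgll3, a TEAD cofactor, had the largest difference, 1.14 ± 0.44 log2 units in 1 of its 3 probe sets, with 0.58 and 0.17 in the Wnt3A arrays, against -1.35 and -0.17 in the controls. Its other probe sets gave at least 0.90, and control 1 was again the low array (0.55 without it). Map4k4, a kinase that acts on Lats beside Stk3 and Stk4, had values of 0.64 and 0.19 in the Wnt3A arrays, against -0.24 and -0.19 in the controls, a difference of 0.63 ± 0.19 log2 units in the highest of its 5 probe sets (0.41 without Wnt3A 1) and of 0.16 in the lowest. Vgll4, which competes with YAP for TEAD factors, had values of -1.55 and 0.48 in the Wnt3A arrays, against -0.48 and 0.69 in the controls, so the groups overlapped. The kinase gene Taok3 had -0.90 and 0.08 in the Wnt3A arrays, against -0.08 and 0.50 in the controls, which also overlapped. These values came from 1 of its 4 probe sets, and the differences over the 4 ran from -0.62 to 0.0.

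A further 17 targets, from a signature of YAP and TAZ activity drawn up in human tumours, were measured by 43 probe sets. Both Wnt3A arrays lay above both controls in 14 (32.6%) and below both in 4, against 17.4% and 16.3% of all probe sets, with a median difference of 0.13 log2 units. At an unadjusted p under 0.05, 6 were higher and 2 lower, against 2.98% and 3.24% of all probe sets, and 0 passed limma's adjusted threshold. Nuak2, a kinase of the AMPK family, had values of 0.84 and 0.44 in the Wnt3A arrays, against -0.65 and -0.44 in the controls. Its arrays agreed within each group to 0.41 log2 units or less, and the difference was 1.18 ± 0.19 log2 units (SE, n = 2 arrays a group, unadjusted p = 0.0030, limma adjusted p = 0.65), or 1.08 without control 1. The ligand gene Tgfb2 differed by 0.76 ± 0.33 log2 units in the highest of its 4 probe sets and by 0.22 in the lowest. Ccdc80, which encodes a secreted matrix protein, differed by 0.93 ± 0.45 log2 units in the higher of its 2 probe sets and by 0.35 in the other. Rbms3, which encodes an RNA-binding protein, ran the other way, by -1.01 ± 0.24 log2 units (SE) in the lowest of its 4 probe sets. That probe set had -0.34 and -0.39 in the Wnt3A arrays, against 0.34 and 0.95 in the controls. The highest of the 4 gave -0.48. Without Wnt3A 1 the Tgfb2 difference was 0.36. Without control 1 the Ccdc80 difference was 0.47 and that of Rbms3 was -1.31. The signature median was 0.03 without Wnt3A 1 and 0.06 without control 1, against 0.27 without Wnt3A 2.

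In the CCN family beyond Ccn1 and Ccn2, Ccn4 stood out in size. Ccn4, also called Wisp1 and known as a target of canonical Wnt signalling, had values of 0.53 and 1.20 in Wnt3A 1 and Wnt3A 2, against -2.32 and -0.53 in control 1 and control 2, in the wider of its probe sets. The difference was 2.29 ± 0.67 log2 units (SE, n = 2 arrays a group, unadjusted p = 0.024, limma adjusted p = 0.74), and its other probe set gave 1.25 ± 0.40. Without control 1 the larger value was 1.39, so the low control array touched Ccn4 as it did Ankrd1. Ccn5 differed by 0.71 ± 0.44, with 1.25 and 0.02 in the Wnt3A arrays, against -0.02 and -0.13 in the controls, and it was 0.09 without Wnt3A 1. Ccn6 differed by 0.25 ± 0.13 and Ccn3 by 0.05 ± 0.12 log2 units in the larger of its probe sets. Of the 6 probe sets of these 4 genes, 5 were separated higher and 0 lower, against 17.4% and 16.3% of all probe sets, and the list median was 0.16 without Wnt3A 1, against 0.48 with all arrays.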

How the data were processed

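RNA from 4 samples, 2 with Wnt3A and 2 controls, was hybridised to single-colour Affymetrix mouse arrays. The values the authors deposited are log2 intensities summarised by RMA (per the submitters' processing notes; version not stated). The median of all 45101 rows over the 4 samples lies within 1e-06 of 0, so the values were centred per probe set, by a step that no label or header describes. Genes were named from the platform annotation, in which 34945 of 45037 probe sets had 1 symbol, 932 several and 9160 none. Wnt3A was compared with control with limma 3.58.1 (R 4.3.3) in a moderated two-sided fit without covariates, p-values being adjusted by Benjamini-Hochberg over all 45037 probe sets at a threshold of 0.05, with 2 residual and 2.30 prior degrees of freedom. The fit was also run on simulated data in which the arrays varied independently, so that run does not cover variation shared by same-numbered arrays. The number of arrays limits the precision: the median SE was 0.16 log2 units, and an exact permutation test of 2 against 2 arrays cannot give a two-sided p below 0.333. Control 2 minus control 1 has 1 array a side and no test. A level band was read from the rounding step of the stored numbers, which places some dim probe sets too high.

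The members and gene lists were chosen with earlier results of these data known. The text names every member, the 4 genes with the largest absolute difference from the lists of Hippo components, YAP and TAZ targets, CCN family and serum response factor and actin genes, some of the 4 so chosen from each marker list, and the 5 genes closest to Ccn2. A few further marker genes were named after their values were seen. Figures were drawn with matplotlib 3.10.9.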

Additional observations from a re-analysis of the deposited data

How the results depend on the processing

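Quantile normalization and subtraction of array medians left the direction of all 24 member probe sets as it was. A robust prior, a replicate block and removal of the lowest level band, which held 0 member probe sets, cannot change a member difference in this design. The 120 of 120 values with unchanged direction include those fixed in this way. In all these settings and with gene means, 0 probe sets passed the adjusted threshold. With an array left out, 20 of 96 member values changed sign. A lone array is then assumed to vary like the other group, and 2 against 1 arrays separate more readily. The shares of all probe sets separated or called with an array left out are not given here. Member counts from those fits therefore have no background and show no shift of the members by themselves. Without control 1, 11 member probe sets were separated higher and 11 lower. The ranges with an array left out were, for Ccn1, -0.73 to 0.29 (1416039_x_at), -0.77 to 0.49 (1438133_a_at), -1.05 to 0.11 (1442340_x_at) and -1.25 to 0.011 (1457823_at). They were for Lats2 -0.29 to 0.034, -0.095 to 0.027, -0.16 to 0.053, -0.48 to 0.42 and -0.30 to 0.37, for Wwtr1 -0.17 to 0.13, -0.22 to 0.21 and -0.25 to 0.15, and for Tead1 (1423434_at) -0.048 to 0.21. Among other genes they were -1.66 to 0.37 for Vgll4, -0.39 to 2.84 for Cnn1, -0.29 to 3.51 for Myh11, -0.14 to 1.87 for Trp63, -0.91 to 1.39 for Col1a2, -0.095 to 0.49 for Thy1, -0.49 to 0.11 for Cdh5, -0.70 to 0.062 for Emcn, -0.090 to 0.14 for Adgre1 and -0.19 to 0.060 for Ptprc. Member probe sets separated higher numbered 9 to 16, separated lower 2 to 11 (11 without control 1), those with an unadjusted p under 0.05 0 to 4, and the member median ran from -0.011 to 0.18. List medians ran from 0.16 to 0.56 (CCN family), 0.0024 to 0.10 (Hippo components), -0.061 to 0.42 (actin genes), 0.028 to 0.27 (YAP and TAZ targets), 0.046 to 0.23 (basal), -0.26 to 0.15 (luminal), 0.0058 to 0.077 (fibroblast), -0.18 to 0.13 (endothelial) and 0.014 to 0.10 (immune).

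With gene means the member median was 0.28, 0 genes were separated lower, 1 had an unadjusted p under 0.05 and 3 differed by at least 1 log2 unit between the controls; the medians were 0.28 (basal), -0.29 (luminal), 0.089 (fibroblast) and 0.24 (YAP and TAZ targets). Fewer units were tested there. Without the lowest band 1 member probe set had an unadjusted p under 0.05, and the medians were 0.98 (CCN family), 0.046 (fibroblast) and 0.090 (immune). Quantile normalization gave 0.55 for the CCN family; the cause was not tested. With the replicate number as a block, 5 member probe sets had an unadjusted p under 0.05 by limma, not 2. The shares of all probe sets called with the block or without the lowest band are not given here. What the replicate numbers stand for is not given by the labels, so pairing is not established. Control 2 minus control 1 and Wnt3A 2 minus Wnt3A 1 nevertheless had a correlation of 0.53 over all probe sets. Same-numbered arrays thus shared variation, which the main fit, its SE and its p-values leave out.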
